A study of Rattus norvegicus with 9 samples.

Results

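Heterotrimeric G proteins and the regulators of G protein signaling (RGS) were examined in RNA of the rat medial prefrontal cortex (mPFC). They were taken from the deposited gene table as the protein-coding entries whose symbols stand for a G alpha, G beta or G gamma subunit or carry the RGS family name, and 1 gene of the family is not reported here. The rule gave 54 entries with 53 different symbols, since Gnas has a pair of entries, out of 34463 genes in the table. Of the 54, 46 had a mean of at least 0.5 FPKM (fragments scaled by gene length and by library size) over all libraries and were tested among 16159 genes, and 8 fell below that level.

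A heterotrimeric G protein couples a receptor in the cell membrane to enzymes and channels inside the cell. The receptor makes the alpha subunit exchange GDP for GTP, after which alpha and the beta-gamma dimer act separately: alpha s and alpha olf stimulate adenylyl cyclase, alpha i, o and z restrain it, alpha q and its relatives activate phospholipase C beta, alpha 12 and 13 activate RhoGEFs, and beta-gamma opens G protein-gated potassium channels. RGS proteins end the signal by speeding the hydrolysis of GTP on the alpha subunit, and cortical neurons use these proteins for the responses to dopamine, serotonin, noradrenaline, acetylcholine, GABA and glutamate.

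The study sequenced mPFC RNA from male Sprague-Dawley rats in 3 groups of 3 libraries. The PHL + CMS group received phloretin (PHL), a dihydrochalcone of apples, and was exposed to chronic mild stress (CMS), the Veh + CMS group received the carboxymethylcellulose vehicle and CMS, and the Veh group received the vehicle and was left unstressed. The methods give 3 weeks of varied stressors for CMS and, for the work in vivo, 20 mg/kg of PHL with 2 weeks of treatment ahead of the stress. The age of the rats is not given in the sources used here, and the labels number the libraries within a group without naming the animals behind them. The p-values therefore cover only how these libraries vary, and that variation may be partly technical. The design has no group with PHL and without CMS, so a change under PHL + CMS cannot be divided between the compound and its combination with stress.

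FPKM times gene length, divided by its smallest value above 0 in the library, gave whole numbers that were taken as reads. There were 13913639 to 16960004 reads on genes in a library, and the 54 entries took 0.424% to 0.489% of them. All 11 tested markers of cortical excitatory neurons were present in every library, at 1.08 FPKM or more. Some libraries stood apart in markers of other cells. The summed FPKM of 15 oligodendrocyte and myelin markers was 3542 to 7707 in PHL + CMS, with replicate 2 as the highest, against 9035 to 12059 in Veh + CMS and 2629 to 3288 in Veh. That of 14 markers of striatal projection neurons was 216 to 232 in PHL + CMS, 316 to 762 in Veh + CMS and 202 to 577 in Veh, where the 577 belongs to replicate 3. In the striatal list only Six3 was at 0 in any library (PHL + CMS replicate 3 and Veh replicates 1 and 2). Mitochondrial genes took 6.96% to 9.09% in PHL + CMS, 9.67% to 13.9% in Veh + CMS and 9.74% to 10.6% of the reads in Veh. The 13.9% belongs to Veh + CMS replicate 2, which was also the highest of its group in the summed FPKM of astrocyte and of microglia markers. In bulk tissue, fewer cells of a type and less RNA per cell cannot be told apart.

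All classes of the machinery were present in the mPFC, and the levels of single members spanned a wide range. Gnb1, a beta subunit, was the highest of all members with 394, 346 and 369 FPKM in PHL + CMS, 329.7, 297 and 343 in Veh + CMS, and 394, 389 and 335 in Veh. The highest gamma subunit was Gng3, which is found mainly in neurons, with a mean of 182 FPKM over the 9 libraries. Gnao1, the main alpha subunit of neurons and a member of the inhibitory i/o class, had 175, 160.3 and 156 FPKM in PHL + CMS, 156, 128 and 151 in Veh + CMS, and 146, 157 and 143 in Veh. For neither Gnb1 nor Gnao1 did an adjusted p pass 0.05 in limma in any of the 3 comparisons.

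Among the stimulatory alpha subunits, the longer Gnas entry (3533 bases of exons) stood highest with 130.3, 138 and 144 FPKM in PHL + CMS, 121, 109 and 126 in Veh + CMS, and 129.6, 125 and 134 in Veh. The shorter Gnas entry (1637 bases) had a mean of 5.61 FPKM, and since both overlap over 42812 bases on the same strand of chromosome 3, their reads may have been divided in an unknown way. Gnaq, which activates phospholipase C beta, led the alpha q class with 58.2, 45.7 and 53.8 FPKM in PHL + CMS, 51.3, 36.9 and 53.3 in Veh + CMS, and 44.8, 50.8 and 43.2 in Veh, and the groups overlapped. Its close relative Gna11 had a mean of 42.5 FPKM. How reads shared by such near-identical pairs were counted is not given in the sources used here.

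Rgs4, which acts on alpha i and alpha q and is known for its high level in cortical neurons, was the highest RGS gene with a mean of 134 FPKM. Rgs10, an RGS of the R12 class that is also expressed in microglia, had 47.7, 45.1 and 58.5 FPKM in PHL + CMS, 62.6, 74.7 and 45.1 in Veh + CMS, and 64.6, 56.5 and 54.9 in Veh. Its groups overlapped in every comparison. Rgs7bp, which anchors RGS proteins of the R7 class to the membrane, had 43.0, 30.5 and 47.4 FPKM in PHL + CMS, 48.8, 33.1 and 39.7 in Veh + CMS, and 50.4, 48.2 and 32.1 in Veh, and these values too overlapped. Rgs22, best known from testis, was near the lowest level tested, with 0.445, 0.333 and 0.325 FPKM in PHL + CMS, 0.833, 0.581 and 0.695 in Veh + CMS, and 0.329, 0.377 and 1.32 in Veh. Of its 3 Veh libraries replicate 3 was far above the others.

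The 46 tested members comprised 3 alpha s, 5 alpha i/o, 4 alpha q and 2 alpha 12/13 entries, 4 beta and 9 gamma subunits, 9 RGS genes of the R4 class, 3 of the RZ class, 2 of the R7 class and 3 of the R12 class, 1 R7 binding protein and Rgs22. Below the level tested were Gnb3, the transducins Gnat1 and Gnat2 of the retina and the related gustducin Gnat3 of taste cells, Gng11, Gng13, Rgs21 and 1 more R7 binding protein, which had means up to 0.429 FPKM. Rgs21 had no read in any library, where 3 reads would have been 0.372 to 0.460 FPKM, depending on the library. That limit covers counting error only.

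**Figure D1:**
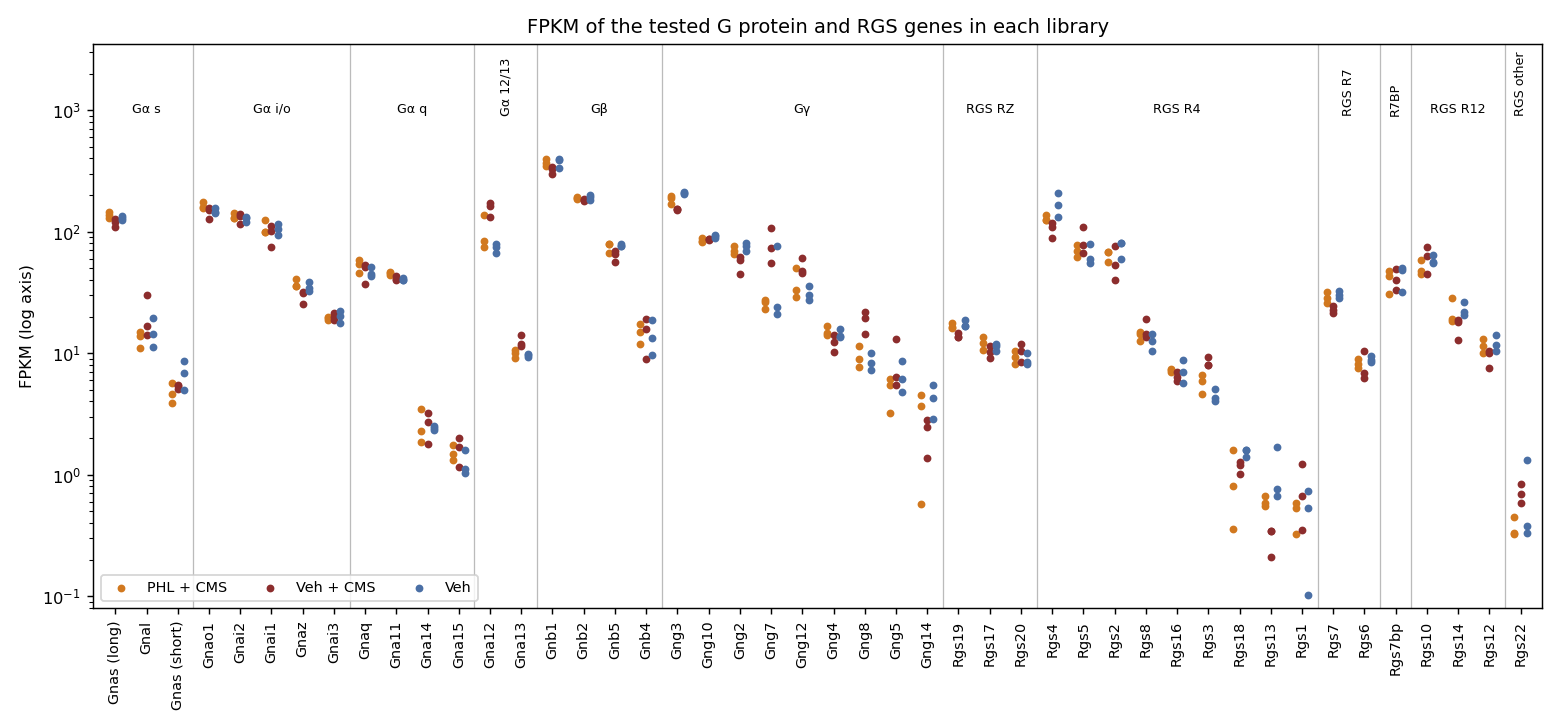
Level of the 46 tested members in each library, in FPKM on a log axis, arranged by role class, with 1 point for each library colored by group (PHL + CMS, Veh + CMS, Veh). Gnb1 lies at the top with a mean of 355 FPKM, followed by Gnb2 with 187 FPKM and Gng3 with 182 FPKM.

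The comparison of Veh + CMS with Veh addressed what chronic stress does to these transcripts in vehicle-treated rats. Gna12, Gng8 and Rgs3 rose under CMS by 1.87-fold to 2.16-fold, and Gng3 fell to 0.737 times its Veh level. These 4 are 8.7% of the 46 tested members, against 613 of 16159 genes (3.79%) called at an adjusted p under 0.05. Split by direction, 3 members were higher (2.65% of all genes) and 1 was lower (1.14% of all genes). Log2 fold changes were above 0 for 20 members (47.5% of all genes) and below 0 for 26 (52.5% of all genes). The median log2 fold change was -0.08 for members and -0.02 for all genes, and the median size of the log2 fold change was 0.30 for members and 0.20 for all genes.

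Gna12 encodes the alpha subunit that couples receptors to RhoGEFs and lies at chromosome 12, bases 15890170 to 15971212 of Rnor_6.0. It had 83.8, 137 and 74.9 FPKM in PHL + CMS, 132, 172 and 164 in Veh + CMS, and 75.3, 66.2 and 78.8 in Veh. Each Veh + CMS library lay above each Veh library, whereas PHL + CMS replicate 2 lay within the range of Veh + CMS and the other PHL + CMS libraries lay close to Veh. In Veh + CMS the log2 fold change against Veh was 1.08 with an SE of 0.21 (adjusted p = 0.0345, limma), on the log2(FPKM + 0.1) scale used throughout, which understates changes at low levels. The gene model of Iqce, with a mean of 6.05 FPKM, covers the whole of Gna12 on the same strand. Gna13, the other member of this class, had 10.0, 10.7 and 9.11 FPKM in PHL + CMS, 11.8, 14.0 and 11.5 in Veh + CMS, and 9.27, 9.63 and 9.77 in Veh. Its Veh + CMS libraries were the highest of all 9, with a log2 fold change against Veh of 0.37 and an SE of 0.10 that missed the threshold (adjusted p = 0.0775, limma).

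Gng8, a gamma subunit known from olfactory and vomeronasal neurons, had 8.97, 11.4 and 7.72 FPKM in PHL + CMS, 14.5, 21.7 and 19.5 in Veh + CMS, and 7.22, 8.24 and 10.1 in Veh. No other group reached the lowest Veh + CMS value, and replicate 2 was the highest library within PHL + CMS. Against Veh, the log2 fold change in Veh + CMS was 1.11 with an SE of 0.19 (adjusted p = 0.0281, limma).

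Rgs3, an R4 class RGS that acts on alpha i and alpha q, had 5.95, 6.66 and 4.59 FPKM in PHL + CMS, 7.97, 9.38 and 8.03 in Veh + CMS, and 4.29, 4.07 and 5.08 in Veh. Here too the Veh + CMS libraries lay above all others, and the PHL + CMS and Veh ranges overlapped. The log2 fold change of Veh + CMS against Veh was 0.90 with an SE of 0.16 (adjusted p = 0.0263, limma).

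Gng3 showed the opposite order, with 188, 169.9 and 196 FPKM in PHL + CMS, 152, 152 and 154 in Veh + CMS, and 208, 211 and 203 in Veh. The 3 groups did not overlap: Veh + CMS was lowest, PHL + CMS intermediate and Veh highest. In Veh + CMS its log2 fold change against Veh was -0.44 with an SE of 0.07 (adjusted p = 0.0263, limma).

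**Figure D2:**
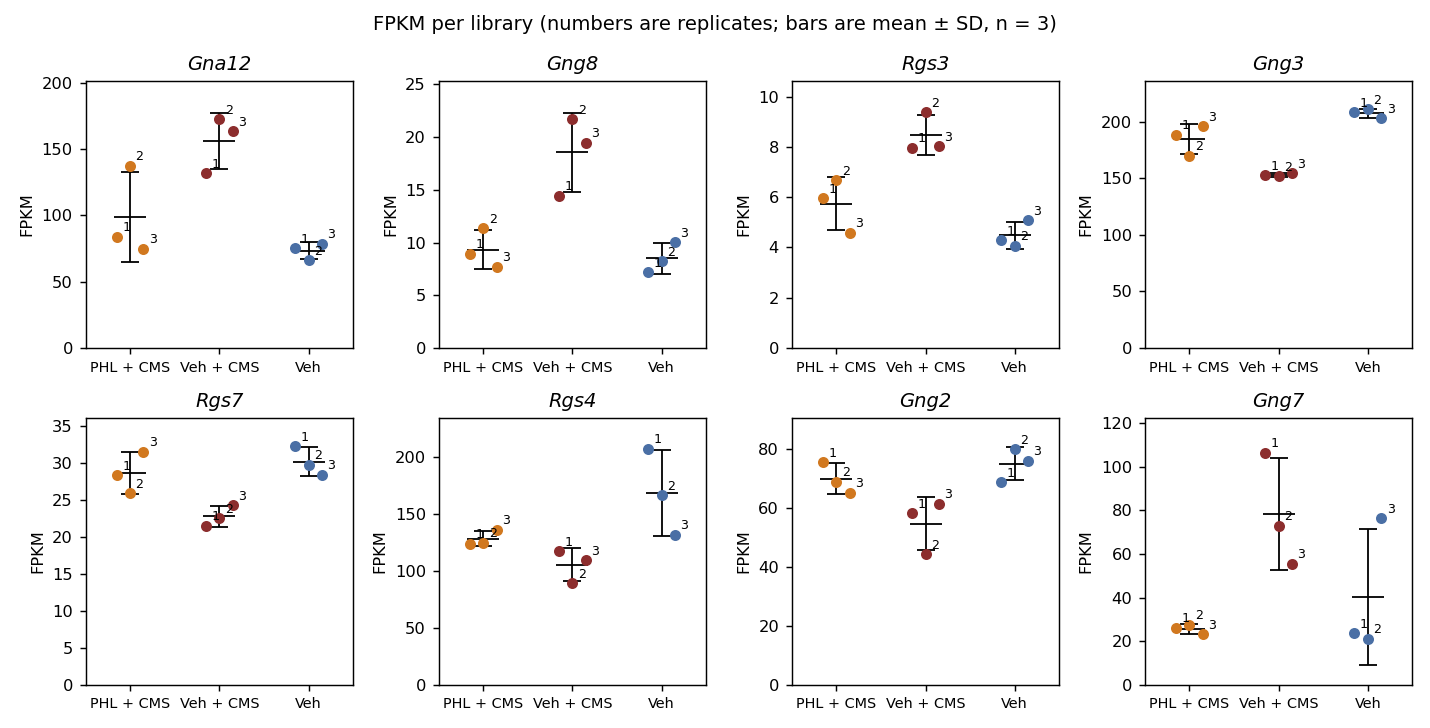
FPKM of Gna12, Gng8, Rgs3, Gng3, Rgs7, Rgs4, Gng2 and Gng7 by group (PHL + CMS, Veh + CMS, Veh), with 1 point for each library and bars for the mean and SD of 3 libraries. The Veh + CMS libraries of Gng8 and Rgs3 lie above all others, those of Gng3 (152 to 154) below all others, and for Gng7 Veh replicate 3 (76.4) lies far from the other Veh libraries.

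The calls of the 4 members were lost in most refits that left out 1 Veh or Veh + CMS library, and fits of fewer libraries also have less power. With any 1 of Veh replicates 1 and 2 or Veh + CMS replicates 1, 2 and 3 left out, none of the 4 members was called, and the genes called over the whole table dropped to 0 or 1. Without Veh replicate 3, Gng3, Gng8, Rgs3, Gng7 and Rgs4 were called while Gna12 was not, beside 493 genes. In these refits the log2 fold change of Gna12 was 1.00 to 1.20, that of Gng8 0.99 to 1.28, that of Rgs3 0.83 to 1.00 and that of Gng3 -0.46 to -0.43. Over all alternatives the adjusted p in limma reached 0.134 for Gna12, 0.118 for Gng8, 0.118 for Rgs3 and 0.116 for Gng3, and Gna12 was also not called without a filter on low levels. With limma's voom on the recovered reads 6 members were called, Rgs4 and Rgs7 being added.

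Markers of several cell types also differed between the groups. All 15 tested markers of oligodendrocytes and myelin rose in Veh + CMS, with a median log2 fold change of 1.66 against Veh, and no marker was at 0 in any library. Relative to the mean of Veh, the myelin list averaged 0.33, 1.23 and 0.11 (log2) in PHL + CMS, 1.45, 1.79 and 1.64 in Veh + CMS, and 0.02, -0.18 and 0.16 in Veh. The Veh + CMS libraries, high for Gna12, Gng8 and Rgs3, were also high for myelin. PHL + CMS replicate 2 was the highest of its group for myelin and for each of these genes. Of these genes, it lay inside the Veh + CMS range for Gna12 only, and it lay below that range for Gng8, Rgs3 and the myelin list. The part of these cells in the result was not tested. All 7 tested oligodendrocyte precursor markers were above 0 with an unadjusted p under 0.05, at a median log2 fold change of 0.91, and limma called 3. Relative to the mean of Veh, this list averaged 0.25, 0.77 and 0.16 (log2) in PHL + CMS. It averaged 0.69, 0.93 and 0.84 in Veh + CMS, and -0.06, -0.02 and 0.08 in Veh. PHL + CMS replicate 2 thus lay inside the Veh + CMS range for the precursor list. Of 11 tested excitatory neuron markers, which have values on the side of Gng3, 0 were called by limma and 1 had an unadjusted p under 0.05. The median log2 fold change of these markers was -0.31 with 10 below 0, and their summed FPKM was 2453 to 2744 in PHL + CMS, 1878 to 2748 in Veh + CMS and 2383 to 3212 in Veh. Of 11 tested interneuron markers, 9 were below 0. Sst and Vip fell, with log2 fold changes of -0.34 and -0.51 (adjusted p = 0.0417 and 0.0423, limma), and the summed FPKM of the interneuron list was 589.8 to 663 in PHL + CMS, 538 to 615 in Veh + CMS and 675 to 776 in Veh. All 13 microglia markers were above 0, of which limma called 0 while 4 had an unadjusted p under 0.05, and they summed to 225 to 252 FPKM in PHL + CMS, 272 to 328 in Veh + CMS and 234 to 278 in Veh. Of 10 astrocyte markers, 6 were above 0 and only Gfap was called, with a log2 fold change of 1.02 (adjusted p = 0.0308, limma). The astrocyte list summed to 1897 to 2175 FPKM in PHL + CMS, 2032 to 2999.8 in Veh + CMS and 1968 to 2239 in Veh. Of 8 tested markers of meninges and fibroblasts, 7 were below 0, at a median log2 fold change of -0.60, and limma called 0. In PHL + CMS they summed to 69.1, 22.5 and 65.7 FPKM. The sums were 22.5, 45.5 and 26.6 in Veh + CMS and 63.5, 56.0 and 24.0 in Veh. Of 12 pericyte and vascular smooth muscle markers 6 were above 0, and of 7 endothelial markers 6 were, with 0 called by limma. The part of these lists was not tested either.

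**Figure D3:**
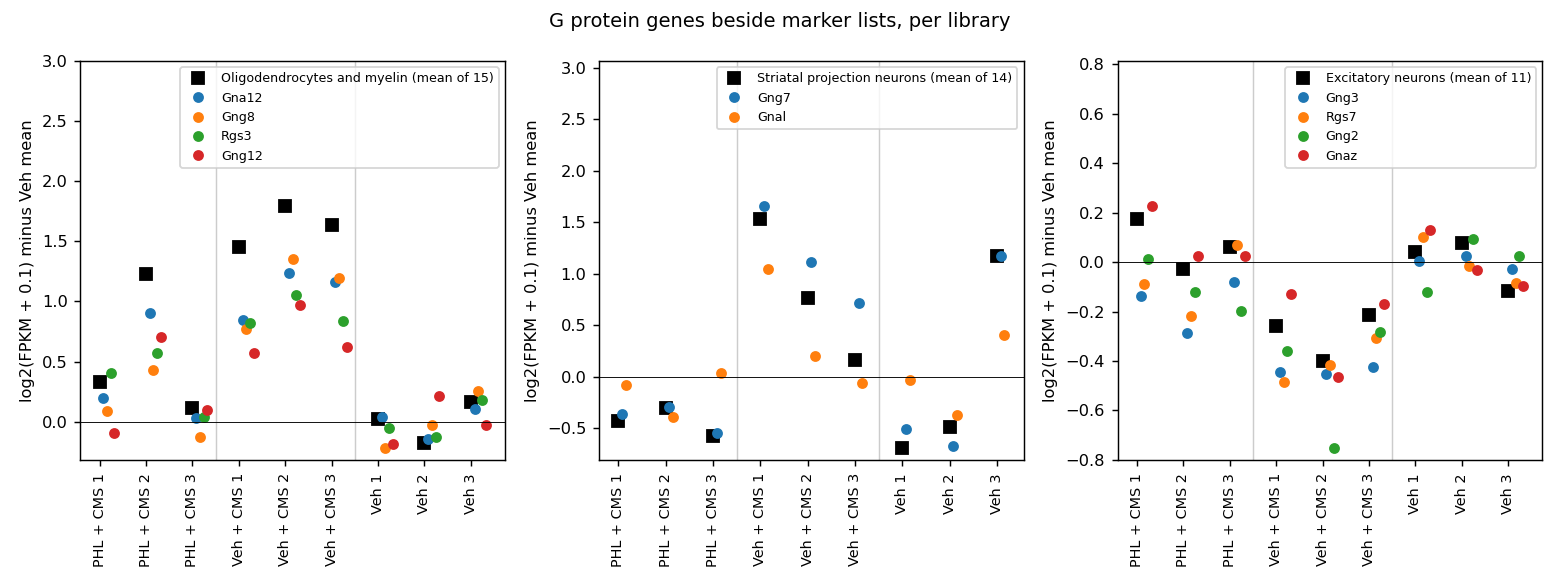
Log2 level relative to the Veh mean, for each library, of 3 marker lists with members set beside each: 15 myelin markers with Gna12, Gng8, Rgs3 and Gng12, 14 striatal markers with Gng7 and Gnal, and 11 excitatory neuron markers with Gng3, Rgs7, Gng2 and Gnaz. PHL + CMS replicate 2 stands at 1.23 for myelin, above the 0.33 and 0.11 of the other PHL + CMS libraries, and Veh replicate 3 at 1.18 for the striatal list, above -0.69 and -0.48.

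Further members had values on the same sides without passing the threshold. At an unadjusted p under 0.05, 6 members were higher (10.9% of all genes) and 9 were lower (11.3% of all genes) in Veh + CMS, which together is 32.6% of members against 22.3% of all genes. The groups did not overlap for 17 members (37.0%), 5 higher and 12 lower, against 27.6% of all genes (14.1% higher and 13.5% lower). Both counts include the 4 called members.

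Rgs7, an R7 class RGS that works with the beta subunit Gnb5 on alpha i and o, had 28.4, 25.9 and 31.6 FPKM in PHL + CMS, 21.5, 22.6 and 24.4 in Veh + CMS, and 32.3, 29.8 and 28.5 in Veh. All Veh + CMS libraries were below all others, with a log2 fold change against Veh of -0.40 and an SE of 0.09 that lay just outside the threshold (adjusted p = 0.0503, limma). Under 15 other settings it was called in 3, namely a pseudocount of 1, a filter at 1 FPKM and voom, and the adjusted p covered 0.0431 to 0.162.

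Rgs4 had 124, 125 and 136 FPKM in PHL + CMS, 117, 89.3 and 109.6 in Veh + CMS, and 208, 167 and 132 in Veh. The Veh libraries were spread widely, and the PHL + CMS libraries lay above all Veh + CMS libraries and around the lowest Veh library. Its log2 fold change in Veh + CMS against Veh was -0.66 with an SE of 0.16 (adjusted p = 0.0556, limma). It was called with voom and without Veh replicate 3, and over 15 other settings the adjusted p was 0.0388 to 0.168. Rgs18, an R4 class gene known from platelets, had few reads, with 10, 4 and 17 reads in PHL + CMS, 12, 13 and 14 in Veh + CMS, and 18, 17 and 14 in Veh. At such counts small differences were not detectable.

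Gng2, a gamma subunit of many tissues, had 75.7, 69.0 and 65.3 FPKM in PHL + CMS, 58.3, 44.5 and 61.6 in Veh + CMS, and 69.0, 80.1 and 76.2 in Veh. Veh + CMS was below both other groups without overlap, with a log2 fold change against Veh of -0.47 and an SE of 0.13 (adjusted p = 0.0725, limma). Without Veh + CMS replicate 2, the lowest library, it was -0.32 (adjusted p = 0.118, limma). The model of Gng2 is 1 run of 3434 bases with no intron, so these values belong to that model, and whether it is the complete gene, a part of it or a copy is not given in the sources used here. Rgs19, an RZ class RGS acting on alpha i and z, had 16.3, 17.7 and 16.0 FPKM in PHL + CMS, 13.6, 13.6 and 14.7 in Veh + CMS, and 18.8, 16.8 and 16.8 in Veh. The Veh + CMS libraries were again the lowest, with a log2 fold change against Veh of -0.32 and an SE of 0.08 (adjusted p = 0.0665, limma).

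Gnaz, an alpha subunit of the inhibitory class that pertussis toxin does not block, had 40.9, 35.5 and 35.6 FPKM in PHL + CMS, 31.9, 25.3 and 31.0 in Veh + CMS, and 38.2, 34.2 and 32.7 in Veh. Veh + CMS did not overlap with either group, and its log2 fold change against Veh was -0.25 with an SE of 0.11 (adjusted p = 0.212, limma). Without Veh + CMS replicate 2, the lowest library, it was -0.15 (adjusted p = 0.436, limma).

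Gng7, the gamma subunit that joins alpha olf (Gnal) in striatal neurons, was spread widely between libraries, with 26.2, 27.5 and 23.1 FPKM in PHL + CMS, 106, 73.0 and 55.6 in Veh + CMS, and 23.7, 21.1 and 76.4 in Veh. Veh replicate 3 lay among the Veh + CMS libraries. The log2 fold change of Veh + CMS against Veh was 1.16 with an SE of 0.44 (adjusted p = 0.164, limma), and without Veh replicate 3 it was 1.75 (adjusted p = 0.0408, limma). The 14 striatal markers averaged -0.42, -0.30 and -0.57 (log2, relative to Veh) in PHL + CMS, 1.53, 0.77 and 0.17 in Veh + CMS, and -0.69, -0.48 and 1.18 in Veh, which is the order of the libraries in Gng7 within Veh + CMS and the same high library in Veh. Their part in the values of Gng7 was not tested. Gnal, chosen after its values were seen, had 13.8, 11.1 and 14.9 FPKM in PHL + CMS, 30.1, 16.7 and 14.0 in Veh + CMS, and 14.3, 11.2 and 19.3 in Veh, with Veh + CMS replicate 1 and Veh replicate 3 highest in their groups.

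The starts of Gng3, Rgs3, Gna12 and Rgs4 are shown because these genes lead their classes or carry the calls above. Each run is the 250 bases before the start of the gene in RefSeq on assembly GRCr8, read 5′ to 3′ along the gene's strand, whereas the expression table uses Rnor_6.0. Capitals mark TGACG or CGTCA, the core of the cAMP response element on either strand, and GGGCGG or CCGCCC, the GC box on either strand. Gng8 was not among the 44 of 53 symbols that RefSeq promoters matched.
Gng3 (chr1:215162719-215162968, minus strand): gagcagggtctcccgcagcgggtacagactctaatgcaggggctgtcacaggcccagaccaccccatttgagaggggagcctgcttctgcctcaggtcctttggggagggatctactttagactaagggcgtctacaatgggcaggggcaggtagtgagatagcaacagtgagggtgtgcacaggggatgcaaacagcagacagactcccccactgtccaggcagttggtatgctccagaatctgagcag
Rgs3 (chr5:81093801-81094050, plus strand): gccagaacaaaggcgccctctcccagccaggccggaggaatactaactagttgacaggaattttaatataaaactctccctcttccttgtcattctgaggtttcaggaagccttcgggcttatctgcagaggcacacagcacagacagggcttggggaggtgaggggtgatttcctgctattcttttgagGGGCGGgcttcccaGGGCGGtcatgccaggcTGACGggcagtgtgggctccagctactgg
Gna12 (chr12:18919379-18919628, plus strand): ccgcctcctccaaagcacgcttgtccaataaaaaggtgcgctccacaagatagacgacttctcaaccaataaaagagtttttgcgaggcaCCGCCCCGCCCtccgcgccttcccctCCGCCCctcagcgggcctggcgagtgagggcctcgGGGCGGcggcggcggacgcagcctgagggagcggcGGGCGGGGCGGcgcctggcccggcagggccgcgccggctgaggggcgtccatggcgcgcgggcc
Rgs4 (chr13:84475885-84476134, minus strand): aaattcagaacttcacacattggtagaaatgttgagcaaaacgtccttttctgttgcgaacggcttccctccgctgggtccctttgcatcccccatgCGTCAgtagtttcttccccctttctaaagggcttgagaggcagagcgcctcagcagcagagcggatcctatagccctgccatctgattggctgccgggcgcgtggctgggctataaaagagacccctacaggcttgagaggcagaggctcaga
The promoter of Gna12 held 6 GC boxes, overlapping ones counted separately, and no TGACG on either strand, and 72% of its bases were G or C. Those of Rgs3 and Rgs4 held 1 TGACG core each, Rgs3 held 2 GC boxes besides, and both held TATAAA. In the promoter of Gng3 neither motif was found. The 44 matched symbols had 46 promoters, of which 41 belong to tested members, so these are not the 46 tested members. Of these promoters, 10 held the TGACG core (21.7%) against 18.2% of all 33469 promoters, and 24 held a GC box (52.2%) against 30.5%. The full palindrome TGACGTCA was found in 1 member promoter (2.17%) against 1.59% of all. The median G and C content was 61.6% in member promoters and 51.2% in all promoters, and a match of letters is not a binding site.

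The comparison of PHL + CMS with Veh + CMS addressed what PHL does in stressed rats. No member was called. The fitted values of Gng8 and Gna12 in PHL + CMS were 0.507 times and 0.615 times the Veh + CMS level, and those of Gng3 and Rgs7 were 1.21 times and 1.25 times that level. Both comparisons use the same 3 Veh + CMS libraries, so signs in them are not independent of each other. By limma, 0 of 46 members and 0 of 16159 genes (0%) passed an adjusted p of 0.05, and 0 were called with voom on recovered reads. The smallest adjusted p was 0.149 among members and 0.136 among all genes.

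At an unadjusted p under 0.05, 14 of 46 members (30.4%) were counted against 2542 genes (15.7%), 8 higher (7.51% of all genes) and 6 lower (8.22% of all genes). The groups did not overlap for 19 members (41.3%) against 21.2% of all genes, and of these 14 were higher (10.5% of all genes) and 5 were lower (10.7% of all genes). Log2 fold changes were above 0 for 25 members (51.1% of all genes) and below 0 for 21 (48.9% of all genes). The median log2 fold change was 0.06 for members and 0.01 for all genes, and its median size was 0.24 for members and 0.18 for all genes.

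The members with lower values in PHL + CMS were led by Gng8, with a log2 fold change of -0.98 and an SE of 0.19 (adjusted p = 0.149, limma). Rgs3 followed with a log2 fold change of -0.57 and an SE of 0.16 (adjusted p = 0.167, limma), and Gng7 had -1.56 with an SE of 0.44 (adjusted p = 0.172, limma). For these 3 genes all PHL + CMS libraries lay below all Veh + CMS libraries. Gna12, with a log2 fold change of -0.70 and an SE of 0.21 (adjusted p = 0.181, limma), had replicate 2 of PHL + CMS inside the Veh + CMS range, and Gna13 had -0.32 with an SE of 0.10 (adjusted p = 0.199, limma).

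Without PHL + CMS replicate 2, which had the highest myelin level of its group, Gna12 and Gng8 were called lower in PHL + CMS by limma. Gna12 then had a log2 fold change of -0.97 (adjusted p = 0.0168) and Gng8 one of -1.13 (adjusted p = 0.0380), beside 285 genes called over the whole table. With all libraries, the 15 myelin markers were all below 0 on the log2 scale in PHL + CMS, at a median of -1.07, and 0 were called by limma while 15 had an unadjusted p under 0.05. For Gng7, 13 of 14 striatal markers were below 0 with a median of -1.01, and 0 were called by limma while 7 had an unadjusted p under 0.05. The part of either list in these values was not tested.

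Among the members with higher values, Gng3 had a log2 fold change of 0.27 with an SE of 0.07 (adjusted p = 0.162, limma) and Rgs7 one of 0.32 with an SE of 0.09 (adjusted p = 0.178, limma). Gnaz had a log2 fold change of 0.35 with an SE of 0.11, Rgs19 0.25 with an SE of 0.08 and Gng2 0.36 with an SE of 0.13, at adjusted p-values of 0.194 to 0.219 in limma. The longer Gnas entry had a log2 fold change of 0.21 with an SE of 0.08 (adjusted p = 0.224, limma). For each of these 6 entries every PHL + CMS library was above every Veh + CMS library. Rgs4 showed this order too, with a smaller log2 fold change relative to its error, 0.29 with an SE of 0.16 (adjusted p = 0.413, limma). All 11 excitatory neuron markers had log2 fold changes above 0 in the same comparison, with a median of 0.39. Limma called 0 of them while 5 had an unadjusted p under 0.05, and their part was not tested.

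By class, the 4 beta subunits all had log2 fold changes above 0, at a median of 0.13, and both alpha 12/13 subunits were below 0, at a median of -0.51. The 9 gamma subunits were divided, with 4 above and 5 below 0 and 3 on each side at an unadjusted p under 0.05. Of the 9 R4 class genes 4 were above and 5 below 0, and only Rgs3 had an unadjusted p under 0.05.

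**Figure D4:**
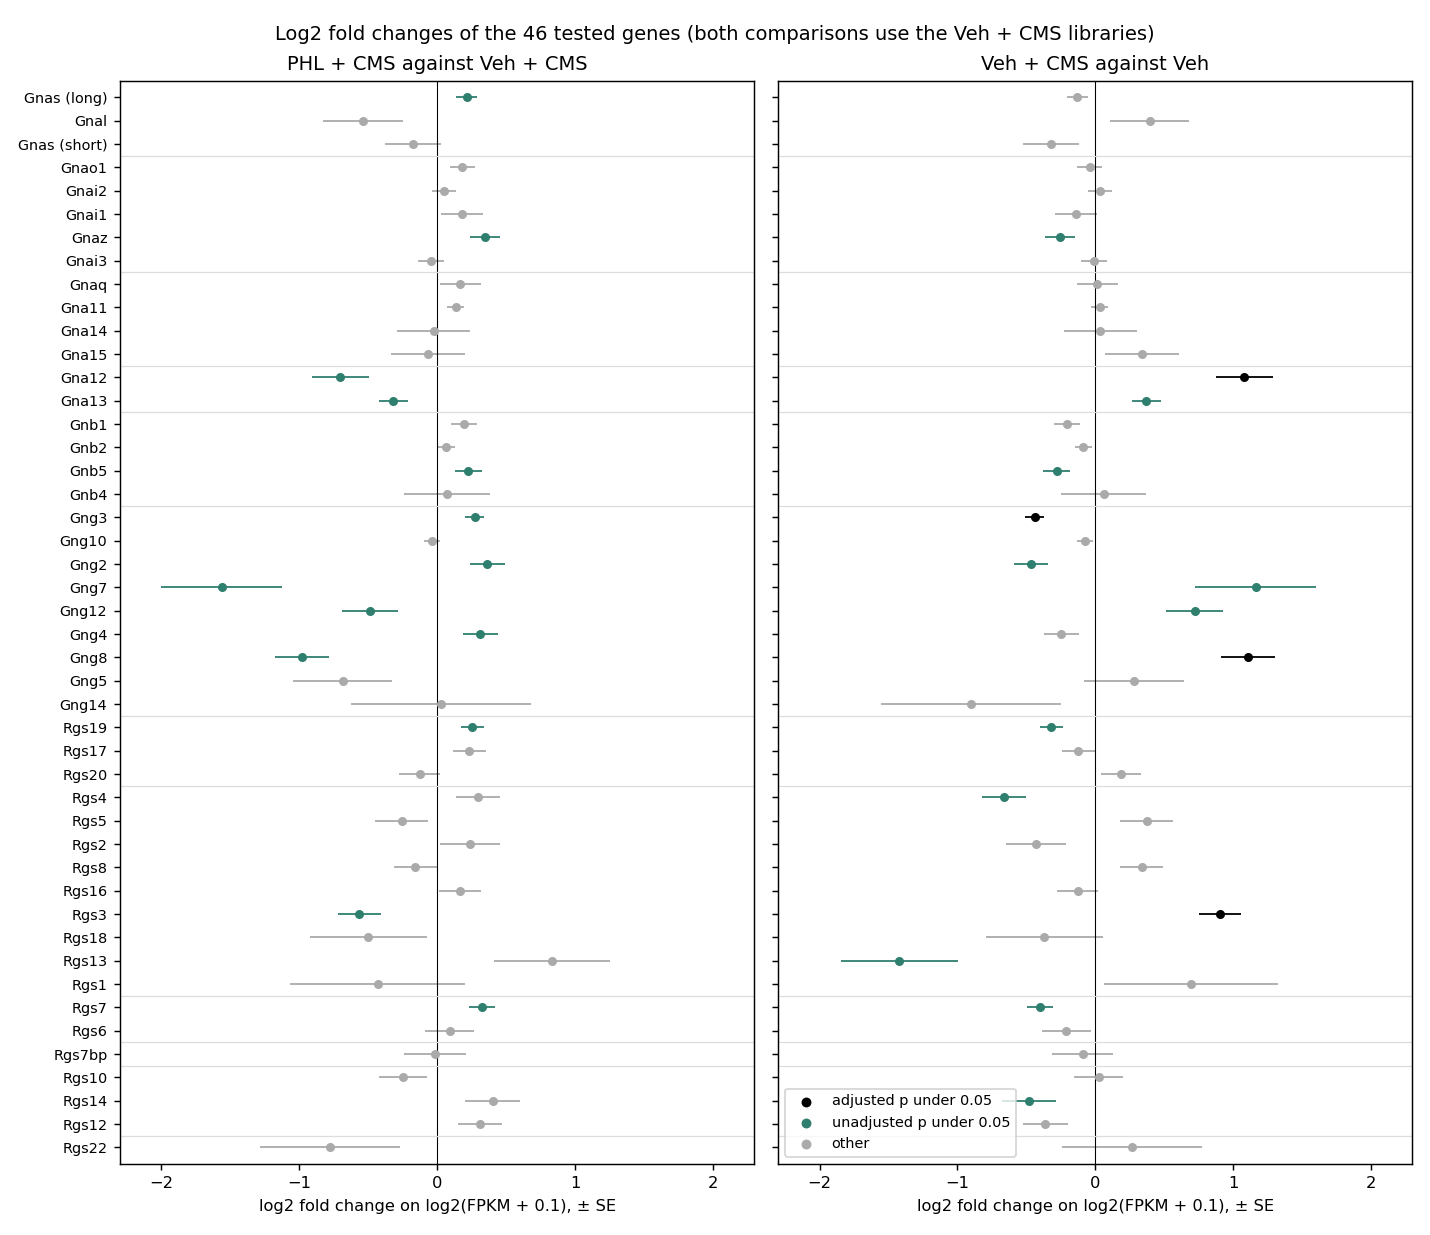
Log2 fold change with its SE for the 46 tested members by role class, in PHL + CMS against Veh + CMS (left) and in Veh + CMS against Veh (right), with black points for an adjusted p under 0.05 and green ones for an unadjusted p under 0.05. Black points appear only on the right, for Gna12, Gng8, Rgs3 and Gng3, and the panels share the Veh + CMS libraries.

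The comparison of PHL + CMS with Veh shows how far the treated and stressed rats differed from unstressed ones, and no member was called. By limma and by voom, 0 of 46 members and 0 of 16159 genes (0%) were called, and the smallest adjusted p was 0.401 among members. At an unadjusted p under 0.05, 4 members (8.7%) were counted, 1 higher (4.99% of all genes) and 3 lower (5.78% of all genes), against 10.8% of all genes in either direction. The groups did not overlap for 2 members (4.35%), 1 higher (8.77% of all genes) and 1 lower (8.78% of all genes), against 17.5% of all genes. Log2 fold changes were above 0 for 22 members (50.6% of all genes) and below 0 for 24 (49.3% of all genes). The median size of the log2 fold change was 0.13 for members and 0.15 for all genes.

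The member with the smallest p was Gna11, which activates phospholipase C beta and had 46.8, 45.7 and 44.1 FPKM in PHL + CMS, 40.3, 40.7 and 43.4 in Veh + CMS, and 40.4, 41.2 and 40.1 in Veh. PHL + CMS lay above both other groups without overlap, and its log2 fold change against Veh was 0.17 with an SE of 0.06 (adjusted p = 0.401, limma). Gng3 was the member that lay below Veh without overlap, with a log2 fold change of -0.17 and an SE of 0.07 (adjusted p = 0.428, limma). The shorter Gnas entry had 3.90, 5.71 and 4.60 FPKM in PHL + CMS, 5.36, 5.45 and 5.08 in Veh + CMS, and 4.95, 6.90 and 8.56 in Veh. Its PHL + CMS and Veh values overlapped, at a log2 fold change of -0.50 with an SE of 0.20 (adjusted p = 0.430, limma).

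Rgs4 had a log2 fold change of -0.37 against Veh with an SE of 0.16 (adjusted p = 0.459, limma), and PHL + CMS replicate 3 lay above the lowest Veh library. Rgs3 had a log2 fold change of 0.34 with an SE of 0.16 (adjusted p = 0.477, limma), and Gna12 had 0.38 with an SE of 0.21 (adjusted p = 0.558, limma). Rgs18 had a log2 fold change of -0.87 with an SE of 0.42 on its few reads (adjusted p = 0.502, limma). Gng10, a widely expressed gamma subunit, had 88.2, 83.0 and 82.5 FPKM in PHL + CMS, 85.5, 87.6 and 87.3 in Veh + CMS, and 87.9, 94.4 and 92.2 in Veh. The PHL + CMS and Veh libraries overlapped, and the log2 fold change was -0.11 with an SE of 0.06 (adjusted p = 0.548, limma).

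The partners of the G proteins were taken from lists of 40 genes, of which 37 were tested: 9 adenylyl cyclases, 4 G protein-gated potassium channels, 3 phospholipases C beta, 6 subunits of protein kinase A, 7 receptor kinases and arrestins, 3 RhoGEFs with an RGS homology domain and 5 chaperones and GoLoco proteins of alpha subunits. In each of the 3 comparisons 0 of the 37 were called by limma. At an unadjusted p under 0.05, 3 of the 37 were higher (7.51% of all genes) and 2 lower (8.22% of all genes) in PHL + CMS against Veh + CMS. In Veh + CMS against Veh, 6 were higher (10.9% of all genes) and 5 lower (11.3% of all genes). In PHL + CMS against Veh, 7 were higher (4.99% of all genes) and 0 lower (5.78% of all genes).

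Prkar1b, a regulatory subunit of protein kinase A, had 265, 224 and 264 FPKM in PHL + CMS, 191, 144 and 198 in Veh + CMS, and 270.4, 279 and 223 in Veh. Veh + CMS was below both other groups without overlap. The log2 fold change was 0.51 with an SE of 0.14 in PHL + CMS against Veh + CMS (adjusted p = 0.168, limma) and -0.54 with an SE of 0.14 in Veh + CMS against Veh (adjusted p = 0.0665, limma). Prkaca, the catalytic subunit, had 74.8, 73.4 and 73.6 FPKM in PHL + CMS, 61.9, 58.6 and 68.1 in Veh + CMS, and 75.0, 76.1 and 75.4 in Veh. Veh + CMS was again the lowest, with log2 fold changes of 0.24 for PHL + CMS against Veh + CMS and -0.27 for Veh + CMS against Veh, each with an SE of 0.07 (adjusted p = 0.177 and 0.0640, limma). In PHL + CMS against Veh, the log2 fold change was 0.22 for Prkar2a and -0.07 for Prkar2b, which are further regulatory subunits.

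Kcnj9, a subunit of the potassium channels that beta-gamma opens, had 45.0, 42.7 and 46.6 FPKM in PHL + CMS, 39.7, 32.2 and 33.7 in Veh + CMS, and 54.7, 58.3 and 40.2 in Veh. Veh + CMS was below both groups without overlap, and its log2 fold change against Veh was -0.52 with an SE of 0.14 (adjusted p = 0.0702, limma). In PHL + CMS the log2 fold change of Kcnj9 was 0.35 against Veh + CMS and -0.17 against Veh, with an SE of 0.14 for each. The log2 fold change of the related Kcnj5, with an SE of 0.37, was -0.65 in PHL + CMS against Veh + CMS and 0.64 in Veh + CMS against Veh, and that of Kcnj6 was 0.25 in PHL + CMS against Veh.

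Adcy5, the adenylyl cyclase known from striatal neurons, had 33.9, 38.2 and 37.1 FPKM in PHL + CMS, 69.8, 57.4 and 41.6 in Veh + CMS, and 31.3, 29.9 and 51.5 in Veh. Veh replicate 3 lay among the Veh + CMS libraries, the library that was also high in Gng7 and in the striatal markers. Its log2 fold changes were -0.60 in PHL + CMS against Veh + CMS and 0.59 in Veh + CMS against Veh, each with an SE of 0.23. The other cyclases with the smallest p had log2 fold changes of 0.22 (Adcy3, PHL + CMS against Veh + CMS), -0.19 (Adcy2, Veh + CMS against Veh), and 0.34 (Adcy1) and 0.70 (Adcy4) in PHL + CMS against Veh.

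The RhoGEFs are the targets of alpha 12 and 13. Arhgef12 had 13.4, 14.9 and 13.1 FPKM in PHL + CMS, 13.8, 16.7 and 14.1 in Veh + CMS, and 10.7, 11.7 and 11.4 in Veh, so that Veh was below both stressed groups without overlap. Its log2 fold change was -0.10 in PHL + CMS against Veh + CMS, 0.39 in Veh + CMS against Veh (adjusted p = 0.0638, limma) and 0.29 in PHL + CMS against Veh (adjusted p = 0.371, limma), with an SE of 0.10 each. Arhgef1 had log2 fold changes of 0.51 in Veh + CMS against Veh and 0.45 in PHL + CMS against Veh, with an SE of 0.15 each, and Arhgef11 had 0.17 in PHL + CMS against Veh + CMS.

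Arrb1, an arrestin that uncouples receptors from G proteins, had 26.5, 26.3 and 26.7 FPKM in PHL + CMS, 23.9, 25.0 and 24.6 in Veh + CMS, and 21.1, 23.6 and 18.2 in Veh. The groups followed that order without overlap, and the log2 fold change was 0.34 with an SE of 0.09 in PHL + CMS against Veh (adjusted p = 0.285, limma) and 0.23 in Veh + CMS against Veh (adjusted p = 0.192, limma). The receptor kinases with the smallest p were Grk4, at a log2 fold change of -0.55 in PHL + CMS against Veh + CMS and 0.57 in Veh + CMS against Veh, and Grk3, at 0.23 in PHL + CMS against Veh + CMS and 0.35 in PHL + CMS against Veh. Among the phospholipases C beta, Plcb3 had a log2 fold change of 0.46 in Veh + CMS against Veh and 0.38 in PHL + CMS against Veh. Plcb4 had log2 fold changes of 0.27 in PHL + CMS against Veh + CMS, -0.36 in Veh + CMS against Veh and -0.09 in PHL + CMS against Veh, and Plcb1 had 0.14 in PHL + CMS against Veh + CMS. The chaperones Ric8a and Ric8b and the GoLoco protein Gpsm2, which had the smallest p of their list, had log2 fold changes of 0.07 for Ric8a and 0.11 for Ric8b in PHL + CMS against Veh + CMS, 0.19 for Gpsm2 and 0.09 for Ric8b in Veh + CMS against Veh, and 0.06 for Ric8a and 0.20 for Ric8b in PHL + CMS against Veh.

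Of the 54 entries, 10 lie on chromosome 13, all of them RGS genes, among them Rgs4 at bases 88054817 to 88061108 and Rgs5 at bases 87966758 to 88003035 of Rnor_6.0. Rgs5, a marker of pericytes, had 62.2, 68.7 and 77.3 FPKM in PHL + CMS, 66.6, 109 and 77.4 in Veh + CMS, and 59.5, 78.6 and 55.3 in Veh, and was chosen after its values were seen. In PHL + CMS, 12 other markers of pericytes and vascular smooth muscle summed to 121, 79.1 and 135 FPKM. Their sums were 64.2, 95.5 and 78.6 in Veh + CMS and 81.4, 111 and 65.4 in Veh. Within each group the list and Rgs5 had the same highest library, replicate 3 in PHL + CMS and replicate 2 in Veh + CMS and in Veh. Over all libraries the highest was PHL + CMS replicate 3 for the list and Veh + CMS replicate 2 for Rgs5. The part of these cells in the values of Rgs5 was not tested. The groups of Rgs5 overlapped in all 3 comparisons, with Veh + CMS replicate 2 far above the rest, and its log2 fold change in Veh + CMS against Veh was 0.37 with an SE of 0.19 (adjusted p = 0.292, limma). The log2 fold change of the neighboring Rgs4 was -0.66 in that comparison, and the difference between both genes was not tested.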

How the data were processed

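RNA of mPFC tissue was sequenced in 9 libraries, and the groups and replicate numbers were taken from the labels. The authors deposited FPKM values for all libraries in 1 table with gene lengths and positions. By the submitters' processing notes, HISAT2 and Rnor_6.0 were used, while for versions, the counting tool, its use of strand and the annotation nothing is given in the sources used here. FPKM times gene length, divided by its smallest value above 0 in the library, gave whole numbers (within 1e-06) in every library. These were taken as reads, which assumes that the smallest value stands for 1 read. All values in the table belonged to these libraries.

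Genes with a mean of at least 0.5 FPKM were fitted with limma 3.58.1 in R 4.3.3 on log2(FPKM + 0.1), with a trended variance, 3 groups in 1 fit and two-sided p-values adjusted by Benjamini-Hochberg over all genes tested, at a threshold of 0.05. An exact test of 3 against 3 libraries cannot go below p = 0.1, so none was used. The members and the gene lists were chosen with earlier results of these data known. Described with all values were members called in any comparison, the 8 with the smallest p in each comparison, and the highest of each role class. Of each partner list, the 2 with the smallest p per comparison were named, most of them by the log2 fold change only. The class of Gng14 was added after the table was seen. Alternatives were pseudocounts of 1 and 0.01, no filter, a filter at 1 FPKM, median-of-ratios scaling, scaling by read totals, voom on the recovered reads, fits of the 2 groups compared, a replicate block and each library left out. The scripts were tested on simulated data.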

Additional observations from a re-analysis of the deposited data

How the results depend on the processing

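The 26 single-gene results with alternatives belong to members described with all values, at an unadjusted p under 0.05 in the main limma fit. Reversals were therefore unlikely from the start, and 390 refits gave none. Of these refits 356 stayed on the same side of the threshold, 26 lost a call and 8 gained one. Only the 4 members called in Veh + CMS against Veh could lose a call. Gna12 kept it in 7 of 15 other settings, and Gng3, Gng8 and Rgs3 kept it in 9 of 15 each. Without a filter, 6 genes were called in PHL + CMS against Veh + CMS, 301 in Veh + CMS against Veh and 4 in PHL + CMS against Veh, where more genes were tested. Leaving out 1 library gave 0 to 285 genes and 0 to 2 members called in PHL + CMS against Veh + CMS, 0 to 493 genes and 0 to 5 members in Veh + CMS against Veh, and 0 to 1 genes in PHL + CMS against Veh. The fits of fewer libraries also have less power, and the cause was not otherwise tested. Members at an unadjusted p under 0.05 in PHL + CMS against Veh numbered 2 with only the 2 groups compared and 0 to 5 with 1 library left out.

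The labels do not say whether equal replicate numbers pair the libraries. Correlations between groups were -0.097 to 0.048 for same-numbered libraries and -0.081 to 0.126 for differently numbered ones. With 3 libraries in a group, these values cannot settle whether the numbers carry a pairing. With a replicate block, 0 genes and 0 members were called in Veh + CMS against Veh, in place of 613 and 4, and the members at an unadjusted p under 0.05 in PHL + CMS against Veh numbered 2. Scaling moved the median of all genes by at most 0.031 (log2). The entries of Gng5 and Gng14 held about 21.2 and 10.7 reads on average, Gng5 lies opposite Arhgap35, and small differences in them were not detectable at this depth. The Gng5 model has 207 bases and no intron, and that of Gng14 has 219 bases in a span of 307. Both stand among the 9 tested gamma subunits. Whether they are complete genes, parts or copies is not given in the sources used here.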

Other observations

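Gnat2, the alpha subunit of cone transducin, fell below the level tested and was singled out after its values were seen. It had 10, 7 and 5 reads in PHL + CMS, 1, 1 and 1 in Veh + CMS, and 0, 4 and 1 in Veh, which is 0.373, 0.290 and 0.218 FPKM in PHL + CMS, 0.0394, 0.0453 and 0.0395 in Veh + CMS, and 0, 0.174 and 0.0462 in Veh. The PHL + CMS libraries lay above all others, on counts this small.

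Gng12, a gamma subunit named here after its values were seen, had 28.9, 50.5 and 33.1 FPKM in PHL + CMS, 46.1, 60.6 and 47.6 in Veh + CMS, and 27.2, 35.9 and 30.3 in Veh. Its highest PHL + CMS library was replicate 2, and its log2 fold change in Veh + CMS against Veh was 0.72 with an SE of 0.20 (adjusted p = 0.0858, limma). Rgs13, an R4 class gene at low level, had 0.673, 0.554 and 0.584 FPKM in PHL + CMS, 0.344, 0.211 and 0.345 in Veh + CMS, and 0.761, 1.67 and 0.671 in Veh. Its log2 fold change in Veh + CMS against Veh was -1.42 with an SE of 0.42 (adjusted p = 0.0958, limma).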
